A study of Oryza sativa with 6 samples.

Results

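Single-exon intergenic transcripts are RNAs assembled from reads that fell between the annotated genes of rice and that span no intron. Of the 57680 transcripts in the deposited table, 2462 were chosen because they carried the class code for an intergenic position and had 1 exon. No measured level was used to choose them from the table. They were listed there because reads had been assembled into them, and the median of their highest value in any library was 1.30 FPKM. Counts by level or by library can be shaped by this, which was not tested. The other intergenic transcripts, 1088 in number, had more than 1 exon, and 35848 transcripts matched the annotation. The libraries came from leaves of CA21, a glyphosate-tolerant rice obtained by mutagenesis and breeding, in the GLY group (seedlings at the third-leaf stage sprayed with glyphosate at 2 mg per ml, 3 libraries) and the CK group (no spray, 3 libraries). Both groups are the same line, so the comparison holds for CA21 alone. The number of plants in a library is not given in the sources used here, and p values measure the spread between these libraries.

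Glyphosate blocks EPSPS, an enzyme of the shikimate pathway that leads to the aromatic amino acids. Genomes are transcribed outside their annotated genes, and intergenic transcripts of plants include long non-coding RNAs, RNAs of transposons and stretches of genes that the annotation ends too early. A transcript with several exons has splice junctions that fix its strand. A single-exon transcript has none, so its strand and ends rest on read coverage and library type, and the strands below are as the table lists them.

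One of the transcripts, MSTRG.2006.1 (chr1:26959524-26959756, minus strand, 233 bases), was measured by qPCR in the study. The primer pair is shown because it is the sequence by which a member was detected a second way. Each primer is 18 bases long.
MSTRG.2006.1-F: tcgggtcggctaaaatcg
MSTRG.2006.1-R: ccgagggttatgggtgac
No genome of the build used for the table was at hand, so the primers were not placed and no other sequence is printed. Coordinates are those of the table. The methods name the Nipponbare genome, IRGSP build 5.0, while the table uses MSU gene models, and the build of the coordinates could not be checked.

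The mapped depth was 4.40, 4.25 and 3.84 Gb in GLY1, GLY2 and GLY3, and 3.43, 3.80 and 3.71 Gb in CK1, CK2 and CK3, so every GLY library was deeper than every CK library. The leaf label was checked with 3 Rubisco small subunit and 3 chlorophyll a/b-binding protein genes. All 6 genes were found, and the summed level was between 9217 and 9948 FPKM in GLY and between 13765 and 14829 FPKM in CK for the Rubisco genes. The chlorophyll a/b-binding genes summed to between 11091 and 19996 FPKM in GLY, lowest in GLY3, and to between 21703 and 22417 FPKM in CK. Among these genes, LOC_Os09g17740 had only 5.23 FPKM in GLY3, and its part in the low GLY3 sum was not tested. The 10 genes described as glutelins or prolamins, storage proteins of the grain, summed to between 2.19 and 2.48 FPKM in GLY and between 0.394 and 0.912 FPKM in CK. FPKM is the fragment number divided by transcript length and by library depth. In leaf samples of this kind, fewer cells of a type and less RNA per cell cannot be told apart.

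The members were short. Their length was between 200 and 15220 bases with a median of 366, against a median of 1222 bases for the multi-exon intergenic transcripts and 1213 bases for the 4938 annotated transcripts with 1 exon. A total of 369 members were longer than 1000 bases. Each of the 2462 members had a locus of its own, and 2431 were the only transcript of their locus. The minus strand was listed for 1345 of them and the plus strand for 1117.

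All 12 chromosomes held members, between 148 on chromosome 10 and 279 on chromosome 6. For every 1000 annotated transcripts, there were 43.7 members on chromosome 3, the lowest ratio, and 98.2 on chromosome 6, the highest. The ratio thus differed between chromosomes. A further intergenic transcript lay within 1 kb of 626 members (25.4%), and whether such neighbours belong to 1 RNA was not tested.

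No member overlapped an annotated transcript. The median distance to the nearest one was 3555 bases, with quartiles of 1204 and 8788 bases and a range of 1 to 126329 bases, and 551 members (22.4%) lay within 1 kb. Within 2 kb, 276 members lay upstream of the neighbour on its strand, 293 upstream on the opposite strand and 277 downstream on the opposite strand, whereas 0 lay downstream on the same strand. Beyond 2 kb, 399 members lay downstream on the same strand, against 346 downstream on the opposite strand. The gap follows from the class codes. A separate code took 970 other transcripts, all with 1 exon, and for 707 of these the nearest annotated transcript was within 2 kb, on the same strand and upstream of them. Whether members farther downstream, or on the listed opposite strand, run on from a gene was not tested.

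**Figure D1:**
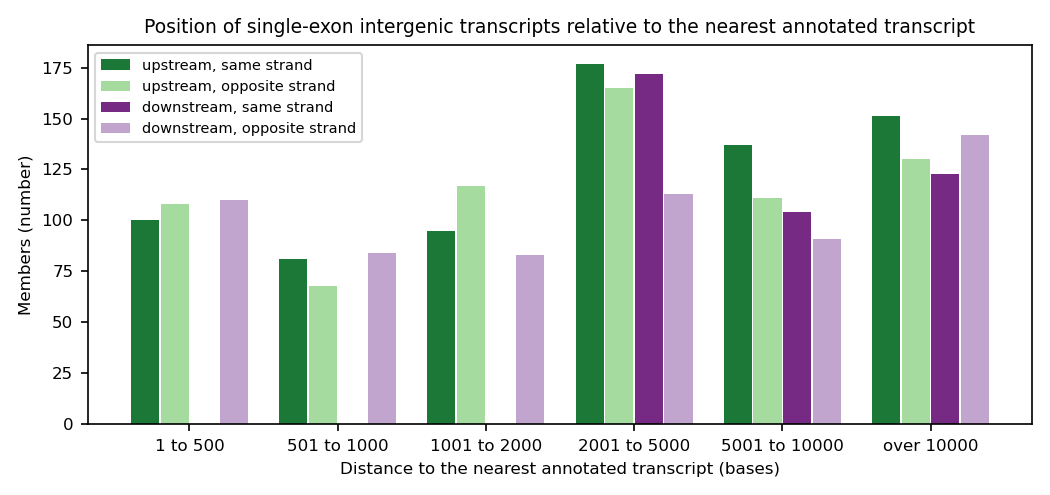
Number of members by distance to the nearest annotated transcript (x axis, bases), separated by side and strand relative to that transcript. The bars for downstream on the same strand are at 0 up to 2000 bases and reach 172 members in the next bin, up to 5000 bases.

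Transposon genes were frequent among the neighbours. The nearest annotated transcript was described as a transposon or retrotransposon protein for 234 members (9.50%), while 3.35% of all annotated transcripts had such a description. Among the members tested below, 65 (8.69%) had such a neighbour. No test was run on these shares.

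Few members were found in all libraries. A total of 726 members (29.5%) had an FPKM above 0 in 1 library, 502 in 2, 369 in 3, 293 in 4, 265 in 5 and 307 (12.5%) in all 6. Of the multi-exon intergenic transcripts, 66.5% were found in all 6 libraries, and of the single-exon annotated transcripts, 18.3%. The longer members were found more often, with a median length of 252 bases for those in 1 library and 668 bases for those in all 6. CK1 had the most members that no other library showed, 152, against 112 to 117 in each of the other 5 libraries. Coverage multiplied by length gives the bases aligned to a member. For the members of 1 library it was between 755 and 52229 bases, with a median of 1208. The median FPKM of these members in that library was 1.21.

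The number of members with any signal was lower in GLY, while the number with an appreciable level was higher. An FPKM above 0 was found for 1190, 1159 and 1154 members in GLY1, GLY2 and GLY3, against 1282, 1200 and 1191 members in CK1, CK2 and CK3. The means were 1168 ± 19.5 in GLY and 1224 ± 50.1 in CK (SD, n = 3 each), a difference of -56.7 members. The groups did not overlap (two-sided exact permutation p = 0.1, as low as 3 libraries against 3 can go, and 0.16 after Benjamini-Hochberg adjustment over 8 such tests). The highest GLY library and the lowest CK library were 1 member apart, and CK1 carried much of the difference, which was -27.8 members without it.

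At a minimum of 0.5 FPKM, the numbers were 903, 943 and 923 members in GLY1, GLY2 and GLY3, against 857, 759 and 766 members in CK1, CK2 and CK3. At a minimum of 1 FPKM, they were 711, 760 and 740 members in GLY, against 634, 533 and 553 members in CK. Both differences, 129 and 164 members, were positive and without overlap (exact permutation test, p = 0.1, adjusted p = 0.16 for each). The order of the groups thus depended on the minimum, and at 0.1 FPKM the groups overlapped, with a difference of -32.0 members (exact permutation p = 0.5, adjusted p = 0.571).

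The members above 0 but under 0.5 FPKM were fewer in every GLY library than in any CK library. They numbered 287, 216 and 231 in GLY1, GLY2 and GLY3, against 425, 441 and 425 in CK1, CK2 and CK3. The means were 245 ± 37.4 in GLY and 430 ± 9.24 in CK (SD, n = 3 each), a difference of -186 members (exact permutation p = 0.1, adjusted p = 0.16). This number is the count above 0 less the count at 0.5 FPKM or more, so its test adds nothing separate to theirs. For the annotated transcripts, the number in the same range was higher in GLY, with 10836, 10657 and 10696 transcripts in GLY1, GLY2 and GLY3 against 10006, 10639 and 10369 in CK1, CK2 and CK3. The multi-exon intergenic transcripts in this range numbered between 217 and 236 in GLY and between 263 and 278 in CK, lower in GLY like the members. The part of depth in these numbers was not tested.

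Annotated transcripts were more numerous in GLY at all 4 minimums, without overlap, with 28907, 28870 and 28734 above 0 in GLY1, GLY2 and GLY3 against 26702, 27354 and 26912 in CK1, CK2 and CK3. For every 1000 of them, there were 41.2, 40.1 and 40.2 members in GLY, against 48.0, 43.9 and 44.3 members in CK. Members above 0 were thus fewer in GLY also relative to annotated transcripts, without overlap (exact permutation p = 0.1, adjusted p = 0.16). At a minimum of 0.5 FPKM this ratio overlapped, with 50.0, 51.8 and 51.2 members in GLY against 51.3, 45.4 and 46.3 members in CK. At 1 FPKM it was higher in GLY without overlap, with 49.5, 52.2 and 51.4 members in GLY against 48.0, 40.4 and 42.2 members in CK. The ratio therefore turned with the minimum, like the numbers themselves. The multi-exon intergenic transcripts at 1 FPKM or more numbered 578, 556 and 575 in GLY, against 475, 466 and 450 in CK. The single-exon annotated transcripts at this minimum numbered 1016, 1007 and 1008 in GLY, against 945, 913 and 974 in CK. Higher numbers in GLY at 1 FPKM were thus shared by these classes.

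**Figure D2:**
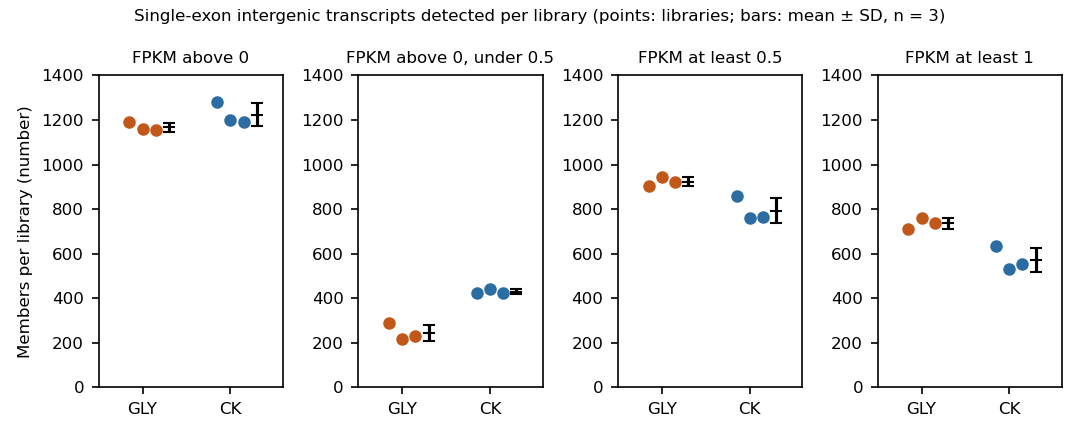
Number of members per library (y axis) at an FPKM above 0, above 0 and under 0.5, at least 0.5 and at least 1, for GLY and CK. Points are libraries and bars are mean ± SD (n = 3), and GLY is below CK in the left 2 panels and above it in the right 2.

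Nearly all of the summed level came from 2 members. MSTRG.13903.1 (chr3:29382362-29382706, plus strand, 345 bases) had 88141, 76635 and 79897 FPKM in GLY1, GLY2 and GLY3, against 85449, 82966 and 96998 FPKM in CK1, CK2 and CK3. MSTRG.4716.1 (chr10:19040457-19040776, minus strand, 320 bases) had 65537, 61250 and 71682 FPKM in GLY, against 63758, 77345 and 69098 FPKM in CK. The GLY and CK values overlapped in both. The log2 fold change was -0.12 ± 0.08 (SE, adjusted p = 0.452) for MSTRG.13903.1 and -0.08 ± 0.09 (SE, adjusted p = 0.642) for MSTRG.4716.1, by limma with Benjamini-Hochberg adjustment. Their nearest annotated transcripts, LOC_Os03g51350.1 at 3494 bases and LOC_Os10g35604.1 at 3735 bases, both described only as expressed proteins, averaged 0.0790 and 0.148 FPKM over the 6 libraries.

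All members summed to 158331, 142110 and 154963 FPKM in GLY1, GLY2 and GLY3, against 153369, 164275 and 170716 FPKM in CK1, CK2 and CK3. The sums overlapped (exact permutation p = 0.3, adjusted p = 0.4), and the members held between 24.4% and 27.2% of all FPKM in a library. Between 97.0% and 97.8% of this sum was due to the 2 highest members. Because FPKM divides by length, their share of the mapped bases was smaller, between 4.60% and 5.56%.

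Without these 2 members, the sums were 4653, 4225 and 3384 FPKM in GLY1, GLY2 and GLY3, against 4161, 3964 and 4620 FPKM in CK1, CK2 and CK3 (exact permutation p = 0.9, adjusted p = 0.9). Without the 10 highest members, they were 1855, 1844 and 1797 FPKM in GLY, against 1654, 1549 and 1563 FPKM in CK, and did not overlap. The direction of the summed level thus turned with the 10 highest members left out.

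The next 4 members by level behaved differently from one another. MSTRG.24090.1 (chr8:4669827-4670066, minus strand, 240 bases) had 1325, 1052 and 879 FPKM in GLY, against 1550, 1510 and 1649 FPKM in CK, without overlap (log2 fold change -0.55 ± 0.16, SE, adjusted p = 0.102 by limma). MSTRG.5515.1 (chr11:3364785-3365012, minus strand, 228 bases) had 353, 279 and 225 FPKM in GLY, against 508, 440 and 520 FPKM in CK (log2 fold change -0.80 ± 0.18, SE, adjusted p = 0.0602 by limma). Neither reached the fold threshold, although every GLY value was below every CK value. MSTRG.9934.1 (chr2:22898267-22898968, minus strand, 702 bases) had 509, 461 and 241 FPKM in GLY, against 249, 240 and 274 FPKM in CK, and the groups overlapped through GLY3. It lay 823 bases downstream of LOC_Os02g37880.2, annotated as a cyclin G-associated kinase, which itself was between 0.897 and 7.87 FPKM in GLY and between 1.35 and 4.07 FPKM in CK.

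The level of MSTRG.22101.1 (chr7:4567729-4568580, minus strand, 852 bases) was erratic. It had 468, 379 and 22.5 FPKM in GLY1, GLY2 and GLY3, against 0, 30.7 and 425 FPKM in CK1, CK2 and CK3. Both groups held high and low libraries, and the fitted difference was not significant (adjusted p = 0.530 by limma). Such patterns recurred. Of the 40 members that reached 5 FPKM in at least 4 libraries, 7 were at 0 in another library, among them MSTRG.6487.1, chosen after its values were seen, with 0, 76.7 and 84.2 FPKM in GLY1, GLY2 and GLY3 against 53.7, 47.2 and 40.7 FPKM in CK1, CK2 and CK3. A value of 0 is therefore described as listed at 0 and not as the absence of the RNA.

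GLY was compared with CK on the log2(FPKM + 1) scale, on which changes of low transcripts look smaller than they are, where the mean reached 0.5 FPKM. This filter left 748 of the 2462 members (30.4%), and 1714 were not tested. Since a member can pass through the group in which it is high, the counts below describe those that passed. A call required P under 0.05 and a log2 fold change of 1 or more in either direction (limma, two-sided).

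In GLY, 89 of the 748 members (11.9%) were called higher and 46 (6.15%) lower. Among all 32646 transcripts tested, 6.66% were called higher and 2.66% lower. With a Benjamini-Hochberg adjusted p under 0.05 as well, 56 members (7.49%) were higher and 29 (3.88%) lower, against 3.50% and 1.40% of all transcripts. The values of GLY and CK did not overlap in 283 members (37.8%), against 30.5% of all transcripts. The multi-exon intergenic transcripts were called higher in 66 and lower in 19 of 844, and the single-exon annotated transcripts higher in 134 and lower in 94 of 1762. The members were thus called more often than the background in both directions, 18.0% of them against 9.33% of all transcripts.

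The median log2 fold change was 0.24 for the members and 0.18 for all transcripts tested. With the libraries scaled by median-of-ratios factors, these medians were 0.09 and 0.01, and the calls numbered 66 members higher and 62 lower in GLY. The share of higher calls was then 51.6%, and 65.9% without scaling. At the adjusted p, 35 members were higher and 42 lower with this scaling. Fewer members passed the adjusted p when any 1 library was left out, between 7 (without GLY1) and 26 (without GLY3) higher and between 4 (without GLY1, GLY2 or CK3) and 10 (without GLY3) lower. The number without CK1 was 10 higher and 5 lower, and without CK2 19 higher and 8 lower.

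**Figure D3:**
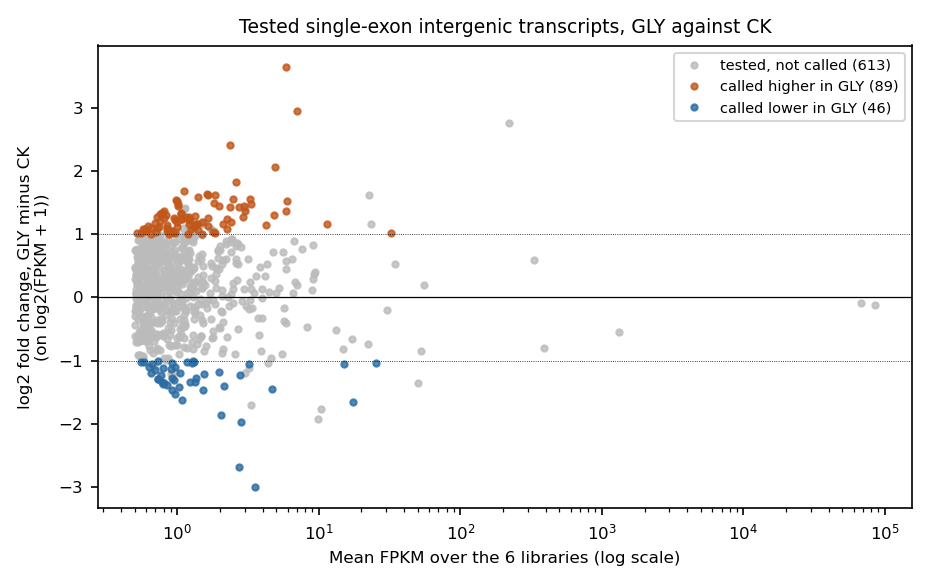
Log2 fold change (GLY minus CK, on log2(FPKM + 1)) of the 748 tested members against their mean FPKM over the 6 libraries on a log scale. The 89 members called higher and the 46 called lower in GLY lie mostly at a mean between 0.5 and 10 FPKM, and the 2 highest members lie near 0.

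The 2 largest rises were in members listed at 0 or at about 1 FPKM or less in CK. MSTRG.1242.1 (chr1:14876660-14878586, minus strand, 1927 bases) had 11.4, 11.0 and 12.4 FPKM in GLY1, GLY2 and GLY3, and was listed at 0 in all CK libraries (adjusted p = 0.000443 by limma). The nearest annotated transcript, that of the wall-associated receptor-like kinase OsWAK8, was 18099 bases away and had at most 0.0338 FPKM in any library. MSTRG.6609.1 (chr11:28091094-28092086, plus strand, 993 bases) had 12.0, 11.0 and 16.6 FPKM in GLY, against 0.708, 1.07 and 0.697 FPKM in CK. Its mean was 16.0 times higher in GLY (log2 fold change 2.95 ± 0.21, SE, adjusted p = 0.0025 by limma). In both members all GLY libraries were far above all CK libraries, and both stood more than 10 kb from any annotated transcript.

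MSTRG.4146.1 (chr10:9216141-9216471, minus strand, 331 bases) had 3.96, 7.68 and 2.55 FPKM in GLY and was listed at 0 in CK (adjusted p = 0.0176 by limma). It lay 809 bases downstream of LOC_Os10g18150.1, annotated as crooked neck, a splicing factor gene first described in Drosophila, on the opposite strand. That transcript had 5.89, 0 and 3.85 FPKM in GLY and was listed at 0 in CK, and was not called (adjusted p = 0.232). The neighbours were both listed at 0 in CK, and differed in GLY2, where the member was highest and the annotated transcript was listed at 0.

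MSTRG.17740.1 (chr5:7746568-7748230, minus strand, 1663 bases) had 5.37, 5.11 and 3.32 FPKM in GLY, against 0.318, 0.834 and 0.537 FPKM in CK (log2 fold change 1.83 ± 0.24, SE, adjusted p = 0.0138 by limma). MSTRG.15257.1 (chr4:14945077-14950517, plus strand, 5441 bases) had 2.38, 2.80 and 3.77 FPKM in GLY, against 0.158, 0.434 and 0.221 FPKM in CK (log2 fold change 1.64 ± 0.21, SE, adjusted p = 0.0139). MSTRG.4455.1 (chr10:15905285-15905927, plus strand, 643 bases) had 2.87, 1.93 and 4.31 FPKM in GLY, against 0.404, 0.309 and 0.127 FPKM in CK (log2 fold change 1.62 ± 0.27, SE, adjusted p = 0.0257). These 3 members had a mean 8.17, 11.0 and 10.8 times that in CK, and each was above 0 in all 6 libraries.

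The remaining members among the 8 largest rises had libraries at 0. MSTRG.22498.1 (chr7:13121631-13123056, minus strand, 1426 bases) had 2.03, 2.53 and 2.15 FPKM in GLY and was listed at 0 in CK (adjusted p = 0.0075 by limma). MSTRG.5581.1 (chr11:4504879-4505792, minus strand, 914 bases) had 9.40, 10.5 and 5.26 FPKM in GLY, against 2.38, 2.07 and 0 FPKM in CK (adjusted p = 0.0798 by limma). Its call thus did not hold after adjustment, although no CK library reached the lowest GLY library.

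The largest falls were also to libraries listed at 0. MSTRG.1606.1 (chr1:21949506-21950024, plus strand, 519 bases) was listed at 0 in all GLY libraries and had 6.46, 6.71 and 8.001 FPKM in CK1, CK2 and CK3 (adjusted p = 0.0011 by limma). The nearest annotated transcript, LOC_Os01g39040.1 of the DUF260 family at 4080 bases, was also listed at 0 in GLY and had 0.485, 0.623 and 0.878 FPKM in CK, below the filter. MSTRG.15999.1 (chr4:24672616-24673182, minus strand, 567 bases) was listed at 0 in GLY and had 6.81, 4.94 and 4.67 FPKM in CK (adjusted p = 0.0026). It lay 1633 bases upstream of LOC_Os04g41580.1, a glycine-rich protein gene that was not called (log2 fold change -0.21 ± 0.22, SE, adjusted p = 0.623). Both members were thus at a steady level in CK and listed at 0 in GLY.

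Members with signal in both groups fell as well. MSTRG.13172.1 (chr3:18622779-18623243, plus strand, 465 bases) had 6.18, 7.50 and 9.98 FPKM in GLY, against 24.0, 34.3 and 23.1 FPKM in CK (log2 fold change -1.66 ± 0.24, SE, adjusted p = 0.0177 by limma). It had the highest level of the members with the largest falls, and lay 724 bases upstream of LOC_Os03g32560.1, a retrotransposon protein gene at no more than 0.279 FPKM in any library. MSTRG.15063.1 (chr4:8303372-8303713, minus strand, 342 bases) had 0.601, 0.830 and 0.229 FPKM in GLY, against 5.04, 6.04 and 4.04 FPKM in CK (log2 fold change -1.97 ± 0.23, SE, adjusted p = 0.0107). MSTRG.14884.1 (chr4:4113977-4114239, plus strand, 263 bases) had 0.157, 0.590 and 0.262 FPKM in GLY, against 2.35, 3.23 and 2.47 FPKM in CK (log2 fold change -1.47 ± 0.21, SE, adjusted p = 0.0183). The mean in GLY was 0.291, 0.110 and 0.125 of that in CK for these 3 members.

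MSTRG.11795.1 (chr3:4298770-4299118, plus strand, 349 bases) had 0.0983, 0.0509 and 0.838 FPKM in GLY, against 4.68, 2.80 and 3.73 FPKM in CK (log2 fold change -1.86 ± 0.29, SE, adjusted p = 0.0230 by limma). Another called member, MSTRG.11799.1, began 2906 bases further on the same strand and was chosen after its values were seen. It had 0, 0 and 0.239 FPKM in GLY, against 3.15, 1.67 and 1.15 FPKM in CK (log2 fold change -1.42 ± 0.30, SE, adjusted p = 0.0477). In both members GLY3 was the highest of the GLY libraries and CK1 the highest of the CK libraries. The last of the 8 largest falls, MSTRG.20359.1 on chromosome 6 and MSTRG.22331.1 on chromosome 7, were listed at 0 in GLY and had between 1.20 and 2.71 FPKM in CK (adjusted p = 0.0242 and 0.0195).

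**Figure D4:**
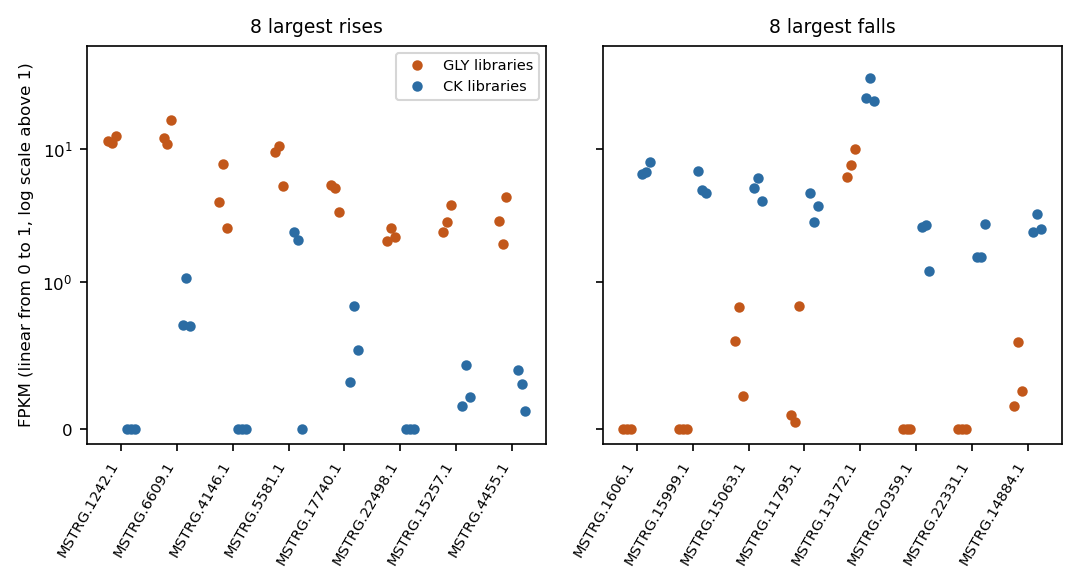
FPKM in each GLY and CK library for the members of the 8 largest rises and 8 largest falls (y axis linear from 0 to 1 and logarithmic above 1; points are libraries). The GLY and CK values do not overlap in any of the 16 members, because the members were chosen by that rule. Of the 16, 7 are listed at 0 in all libraries of 1 group.

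MSTRG.2006.1, for which the primers are given above, was listed at 0 in all GLY libraries and had 2.28, 1.19 and 1.34 FPKM in CK1, CK2 and CK3 (adjusted p = 0.0277 by limma). Its highest coverage was 7.81 reads per base. The nearest annotated transcript, LOC_Os01g47190.1 of a phosphoglycerate mutase, an enzyme of glycolysis in its best known form, lay 11884 bases away. It had 3.34, 4.50 and 4.14 FPKM in GLY, against 1.57, 1.37 and 2.78 FPKM in CK, and was not called (log2 fold change 0.81 ± 0.24, SE, adjusted p = 0.111). Thus the member was lower in GLY while its neighbour had higher values in GLY.

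Members found in every library of 1 group and in none of the other numbered 28 for GLY and 41 for CK. Their level was low, with a median of the group mean of 1.07 FPKM in GLY for the GLY members and 0.832 FPKM in CK for the CK members. Of these, 15 and 14 passed the filter. The highest, besides those described, were MSTRG.26151.1 with 2.43, 2.12 and 1.29 FPKM in GLY, MSTRG.21867.1 with 0.602, 1.41 and 2.97 FPKM in GLY, and MSTRG.24490.1 with 0.319, 4.17 and 1.20 FPKM in CK. The spread within the group was wide for MSTRG.21867.1 and MSTRG.24490.1, and neither passed the adjusted p (0.0908 and 0.195 by limma). MSTRG.21867.1 lay 533 bases upstream of LOC_Os07g04930.1, a retrotransposon protein gene on the same strand with 0.282, 0.133 and 0.329 FPKM in GLY against 0, 0.0614 and 0 FPKM in CK. Members found in any library of 1 group only numbered 469 for GLY and 522 for CK. No share over all transcripts is set beside these counts, so they cannot be called particular to the members.

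The called members differed in length by direction. The median length was 761 bases for the 89 members higher in GLY and 464 bases for the 46 lower in GLY, and 642 bases for all 748 tested. Among the 218 tested members of at least 1000 bases, 32 were higher and 6 lower. Among the 301 members under 500 bases, 34 were higher and 26 lower. All transcripts of at least 1000 bases were called higher in 1868 and lower in 660 of 27899, and those under 500 bases higher in 95 and lower in 59 of 1181. Falls were thus rarer among long members, and all transcripts had the same order. All transcripts include the members, which made up 301 of the 1181 under 500 bases and 26 of their 59 falls. No test was run on these counts.

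**Figure D5:**
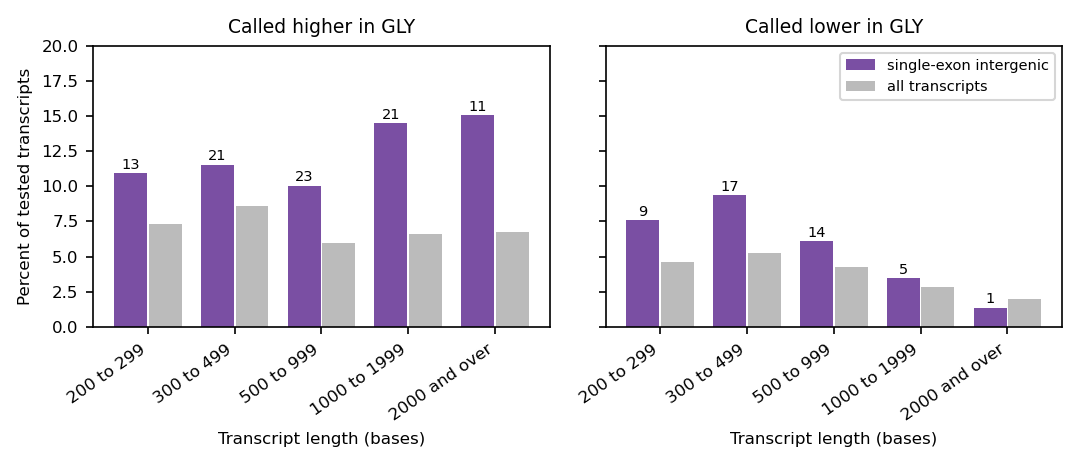
Percent of tested transcripts called higher (left) and lower (right) in GLY by transcript length in bases, for the members and for all transcripts, members included. Numbers above the bars are members, with 11 called higher and 1 called lower among those of 2000 bases and over.

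The 3 longest members showed no common difference. MSTRG.764.1 (chr1:7630881-7646100, minus strand, 15220 bases) had 0, 2.18 and 0 FPKM in GLY, against 0, 0.185 and 0.440 FPKM in CK, under the filter. MSTRG.11227.1 (chr2:35464041-35477695, minus strand, 13655 bases) had 5.61, 0 and 0 FPKM in GLY, against 0, 2.00 and 2.08 FPKM in CK (adjusted p = 0.934 by limma). MSTRG.10045.1 (chr2:23916852-23928926, minus strand, 12075 bases) had 1.08, 1.32 and 0 FPKM in GLY, against 0.776, 0.915 and 0.552 FPKM in CK (adjusted p = 0.959). Each of them was listed at 0 in at least 1 library, and the groups overlapped in all 3. MSTRG.10045.1 lay 642 bases downstream of LOC_Os02g39640.1, described as an expressed protein, on the opposite strand, at a mean of 0.319 FPKM.

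Called members were spread over the genome. Chromosome 8 had 1 member higher and 8 lower in GLY, while chromosome 9 had 6 higher and 0 lower, and on the other chromosomes the rises numbered between 1 and 14 and the falls between 2 and 5. Within 10 kb of each other, 5 pairs of called members were found, and the members of all 5 pairs had the same direction. Neither the numbers tested per chromosome nor shares over all transcripts are set beside these counts, so they cannot be called particular to the members. The longest run was on chromosome 5, where MSTRG.17868.1, MSTRG.17869.1 and MSTRG.17871.1 followed one another on the plus strand with gaps of 1386 and 6153 bases. MSTRG.17869.1 (6814 bases) had 1.93, 2.21 and 1.56 FPKM in GLY, against 0.226, 0.369 and 0.0824 FPKM in CK (log2 fold change 1.24 ± 0.20, SE, adjusted p = 0.0243 by limma). The log2 fold changes of the others were 1.45 ± 0.21 and 1.03 ± 0.20 (SE, adjusted p = 0.0183 and 0.0425). These members were chosen after their values were seen, and whether they belong to 1 RNA was not tested.

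The neighbours of called members were set beside them, with no test of the pairs. Of the 135 called members, 70 had a nearest annotated transcript that passed the filter, and for 12 of these members the neighbour was itself called, for 8 in the direction of the member and for 4 in the other. Some members shared a neighbour. The 70 members had 64 different neighbours, of which 11 (17.2%) were called, beside 9.12% of all annotated transcripts tested. Across the 85 pairs of a tested member and a tested neighbour within 1 kb, the log2 fold changes had a Pearson r of 0.25 and a Spearman rho of 0.11. Across the 144 pairs between 1 and 5 kb apart they were 0.12 and 0.16, and across the 133 pairs more than 5 kb apart -0.05 and 0.06. The r was lower at each greater distance, whereas rho was highest between 1 and 5 kb. Both values of a pair come from the same 6 libraries, and these are correlations across genes.

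Pairs that moved together included MSTRG.26151.1 and LOC_Os09g23084.1, an endoglucanase gene 4739 bases away, a class of enzymes that cut cell wall glucans. The endoglucanase transcript had 25.9, 25.4 and 26.2 FPKM in GLY, against 6.98, 5.86 and 7.14 FPKM in CK (log2 fold change 1.81 ± 0.14, SE, adjusted p = 0.0030 by limma). The closest pair, chosen after its values were seen, was MSTRG.20257.1 and LOC_Os06g18000.1, a protein kinase gene 76 bases away on the opposite strand. The member had 1.53, 2.13 and 1.03 FPKM in GLY, against 0.810, 0 and 0 FPKM in CK (log2 fold change 1.05 ± 0.32, SE, adjusted p = 0.122). The kinase transcript had 24.4, 23.6 and 25.8 FPKM in GLY, against 9.41, 10.3 and 9.56 FPKM in CK (log2 fold change 1.25 ± 0.13, SE, adjusted p = 0.0067). In both pairs the annotated transcript was at a far higher level than the member and separated the groups without overlap.

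MSTRG.24155.1 (chr8:5559649-5560111, minus strand, 463 bases), also chosen after its values were seen, was listed at 0 in GLY and had 0.952, 1.86 and 2.70 FPKM in CK (adjusted p = 0.0380 by limma). It lay 244 bases downstream of LOC_Os08g09600.1, an F-box protein gene of the family that marks proteins for degradation, on the opposite strand. The F-box transcript was likewise listed at 0 in GLY and had 0.639, 1.44 and 1.24 FPKM in CK (adjusted p = 0.0552). Without stranded reads, such neighbours on opposite strands could share reads, and whether the libraries were stranded is not given in the sources used here.

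The opposite direction was seen for 4 members. MSTRG.10233.1 had 1.67, 1.53 and 1.28 FPKM in GLY, against 0.165, 0.203 and 0.238 FPKM in CK (log2 fold change 1.05 ± 0.18, SE, adjusted p = 0.0291 by limma). The cyclin gene transcript LOC_Os02g43550.1, 2383 bases away on the same strand, had 4.01, 2.85 and 3.06 FPKM in GLY, against 9.37, 8.18 and 6.17 FPKM in CK (log2 fold change -1.04 ± 0.21, SE, adjusted p = 0.0433). The member thus rose where the cyclin transcript fell. MSTRG.2060.1 and MSTRG.2061.1, at 11733 and 2288 bases from LOC_Os01g47900.1, were higher in GLY. This S-locus-like receptor kinase transcript had 8.85, 0 and 0 FPKM in GLY against 16.1, 12.0 and 17.2 FPKM in CK (adjusted p = 0.128). MSTRG.2541.1 had 0, 0.512 and 0.718 FPKM in GLY, against 1.06, 3.18 and 1.56 FPKM in CK (adjusted p = 0.156). Its neighbour at 7038 bases, LOC_Os01g55240.1, is a transcript of gibberellin 2-beta-dioxygenase, an enzyme that inactivates gibberellins. That transcript had 1.76, 2.03 and 0.741 FPKM in GLY against 0.0503, 0.0908 and 0.186 FPKM in CK (adjusted p = 0.0654). All 4 were chosen after their values were seen.

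Neighbours described as transposon or retrotransposon proteins stood beside 12 of the 89 members higher in GLY and 13 of the 46 lower in GLY, against 8.69% of the tested members. Members lower in GLY were also farther from the annotation, at a median of 7144 bases, than members higher in GLY, at 3855 bases, and all tested members, at 3760 bases. These are counts and medians of the called members, with no test of the difference.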

How the data were processed

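Leaf RNA of CA21 was freed of ribosomal RNA and sequenced in paired-end libraries. The authors used Bowtie 2 and TopHat2 for mapping to the genome of Nipponbare, StringTie for assembly and Ballgown for the levels of transcripts. Tool versions are not given in the sources used here. The authors deposited 1 FPKM value per transcript and library, normalized for length and depth, with no pooling of replicates. The deposited coverage is the mean number of reads over each base of a transcript, not corrected for depth. Its median ratio to FPKM is what is called the mapped depth here, between 3.43 and 4.40 Gb. No counts were used, so the spread between libraries gives the precision. The class codes are those of the table. The deposited table per gene was not used, and 0 columns of other samples were present.

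The members are all transcripts with the intergenic class code and 1 exon. Members, gene lists and the rule for named members were chosen with earlier results of these data known. The rule names the 8 largest rises and 8 largest falls among called members without overlap, the 6 highest members, the member named in the paper, the 5 highest members found in all libraries of 1 group and none of the other in each direction, the 3 longest, and their neighbours within 1 kb or called. Distances were taken to the nearest transcript with the code for a match to the annotation, side by its strand, and ties were settled by level.

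FPKM values of all transcripts with a mean of at least 0.5 were taken as log2(FPKM + 1), and limma 3.58.1 in R 4.3.3 (lmFit, eBayes with trend) was run with group as the only term. The p values were adjusted by the method of Benjamini and Hochberg over 32646 transcripts. The paper names a count model, which FPKM values do not allow. Values per library were compared with two-sided exact permutation tests in SciPy. The fit was tested on simulated data, where it recovered the direction of the changes put in. These changes were put only into transcripts of higher level and small spread. The result therefore does not cover members near the filter or with libraries at 0. The alternatives were other filters (none, or a mean of 1 FPKM), a pseudocount of 0.1, scaling by median-of-ratios factors, the replicate number as a block, the library-size covariate of Ballgown, no moderation of variances, other minimums of detection, other windows and each library left out. The detection minimum of 1 FPKM and the sum without the 2 highest members were added after seeing the data.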

Additional observations from a re-analysis of the deposited data

How the results depend on the processing

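The numbers of members called at P, 89 higher and 46 lower in GLY, were most affected by the pseudocount, the filter and the library-size covariate. A pseudocount of 0.1 gave 143 higher, and 134 of the 135 calls were kept. A minimum mean of 1 FPKM left 339 members, with 56 higher and 24 lower at P, 36 and 13 at the adjusted p, and 164 without overlap. Without the filter, 29 higher and 13 lower passed the adjusted p over more transcripts. Median-of-ratios scaling gave 35 higher and 42 lower at the adjusted p, so falls then outnumbered rises, and kept 112 of the 135 calls. The library-size covariate, added as a term to the limma fit, gave 13 higher and 17 lower at P, and 0 and 0 at the adjusted p. This covariate was between 27625 and 28316 in GLY and between 23812 and 24764 in CK, so it cannot be told apart from the treatment. It also turned the sign of the log2 fold change for MSTRG.5581.1 (-1.64), MSTRG.13903.1 (0.49), MSTRG.4716.1 (0.64), MSTRG.24090.1 (0.014), MSTRG.24490.1 (2.19) and MSTRG.11227.1 (8.69). With the replicate number as a block, 1 higher and 1 lower passed the adjusted p, and 89 and 47 were called at P. Libraries of the same number did not deviate together (correlations of -0.0056, 0.0022 and -0.0024). Whether the numbers pair the libraries is not given in the sources used here. Correlations across transcripts cannot decide it, since they do not show how the plants were grown or handled. With 1 library left out, between 7 and 26 members were higher and between 4 and 10 lower at the adjusted p, on fewer libraries. Then MSTRG.11227.1 was between -1.07 and 0.29 and MSTRG.10045.1 between -0.27 and 0.34 on the log2 scale. The difference in members detected (-56.7 above 0) was 129 at a minimum of 0.5 FPKM and 164 at 1 FPKM. The difference in summed FPKM (-10985) was 0.102 percentage points as a share of all FPKM and 243 FPKM without the 10 highest members, and with median-of-ratios scaling it was -39369, without overlap. It was between -15694 and -6139 with 1 library left out. A window of 5 kb held 1473 members in place of 551, and 303 lay within 1 kb of an annotated transcript with a mean of at least 0.5 FPKM. For the 28 named members tested, 324 of the values under the 13 alternatives kept their direction and side of the threshold, 19 lost the call, 1 gained it and 12 turned direction. Except where stated, the cause was not tested.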
